A study of Mus musculus with 8 samples.

Results

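Socs1, Socs2, Socs3, Cish, Pim1 and Pim2 are 6 mouse genes whose transcripts respond to cytokines. Their probe sets were taken by annotation: every probe set that carried 1 of these symbols and no other gene was a member, 14 of the 45037 probe sets on the array. Socs2 had 6 such probe sets, Socs3 had 3, Pim1 had 2, and Socs1, Cish and Pim2 had 1 each. A probe set entered the tests when its signal lay above the median of its array on at least 2 of the 8 arrays. Of the members, 11 of 14 did, with at least 1 for each of the 6 genes, among 23725 probe sets in all. The genes lie on chromosome 16 (Socs1, 10783808 to 10785536), chromosome 10 (Socs2, 95383903 to 95417321), chromosome 11 (Socs3, 117966079 to 117970336), chromosome 9 (Cish, 107296659 to 107302784), chromosome 17 (Pim1, 29490785 to 29496111) and chromosome X (Pim2, 7878306 to 7883432), in the RefSeq annotation of GRCm38.p6.

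The arrays measured polyclonal memory CD4 T cells of the spleen at day 60 after infection with lymphocytic choriomeningitis virus (LCMV) Armstrong, a strain that mice clear as an acute infection. The 4 groups were T follicular helper (Tfh) cells of Rictor-null mice, Tfh cells of wild-type (WT) mice, T helper 1 (Th1) cells of Rictor-null mice and Th1 cells of WT mice, with 2 arrays each. Tfh cells help B cells to make antibody, Th1 cells make interferon gamma, and Rictor is the defining part of mTOR complex 2, one of whose substrates is AKT. At least 10 mice were pooled for each array, and all had been infected. The part of Rictor that was deleted, the cells in which it was deleted, the sort gates, and the strain, age and sex of the mice are not stated in the labels.

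Cytokines such as interleukin 2, interleukin 6, interleukin 21 and the interferons bind receptors that carry JAK kinases, which phosphorylate STAT transcription factors. STATs switch on a small set of genes in most cell types, and the SOCS family is among them. CIS (from Cish) and SOCS1, SOCS2 and SOCS3 are SH2-domain proteins that bind the receptors or the JAKs and dampen the signal that induced them, so their transcripts are commonly read as a trace of recent cytokine signalling. PIM1 and PIM2 are serine/threonine kinases that are active without an activating step, so that their amount sets their activity, and they favour survival and growth. In mouse CD4 T cells, interleukin 2 acting through STAT5 is known to oppose the Tfh fate, whereas STAT3 cytokines favour it.

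Stretches of RefSeq promoter sequence (GRCm38.p6) that hold a motif of a cytokine-responsive or FOXO factor are shown for 4 members, because STAT, interferon-response and FOXO factors are known to bind such letters at cytokine-responsive genes. Capitals mark the motif. Windows ran from 250 bases before to 50 bases after a transcript start of the RefSeq table, 5 of the 6 genes matched, Pim1 had 2 windows, and no Socs2 window was used here. The motifs searched on both strands were the STAT motif TTCNNNGAA, the interferon-response motif (GAAA, any 2 bases, GAAA) and the FOXO motif GTAAACA. Of 32851 windows of this length, 8.3% held the STAT motif, 3.44% the interferon-response motif and 3.65% the FOXO motif.
Cish: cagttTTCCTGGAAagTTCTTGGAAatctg
Socs3: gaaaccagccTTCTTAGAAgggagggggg
Socs1: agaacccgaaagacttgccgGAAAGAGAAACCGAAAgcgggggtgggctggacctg
Pim1: ccccaaagtttGTAAACAggaatcacgtg
The Cish stretch (chr9:107296654-107296683, plus strand) holds 2 STAT matches, at bases 1 to 9 and 12 to 20 counted from the start, and 0.457% of all windows held 2 or more. In Socs3 (chr11:117969502-117969530, minus strand) 1 STAT match lies at bases -154 to -146. Socs1 (chr16:10785584-10785639, minus strand) has 2 overlapping interferon-response matches, at bases -83 to -74 and -77 to -68. The Pim1 stretch (chr17:29493004-29493032, plus strand), from the second Pim1 window, has the FOXO motif at bases -70 to -64. The starts from which the Socs3 and second Pim1 positions are counted, and these 2 stretches, lie inside the gene spans given above. The first Pim1 window and the Pim2 window held none of these letters. A match describes the letters and is not a binding site.

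The 8 arrays had median signals of 35.69 to 37.74 and maxima of 16055 to 16327, and each array correlated most with the other array of its own group. A pair of arrays stood apart on the third principal component (20.6% of the variance), with 18.1 for Rictor-null Tfh replicate 2, 11.8 for WT Th1 replicate 1 and -10 to 2.97 for the other 6 arrays. The Rictor probe sets gave no check of the labels: 4 of 5 did not pass the test in either cell type, the dimmest had 45.6 and 53.5 in Rictor-null Tfh cells against 32.4 and 35.5 in WT Tfh cells (log2 difference 0.305, adjusted p = 0.0366), and a probe outside the deleted part checks nothing. Among markers, Cd3e lay between 2588 and 2845 on all arrays, and of 15 Tfh markers 8 were higher and 4 lower in Tfh than in Th1 cells of Rictor-null mice, and 8 higher and 3 lower in WT mice. Cxcr5 and Bcl6, which define Tfh cells, were among the higher ones, and Il4, Btla and P2rx7 were lower in both genotypes. Of 14 Th1 markers tested, Tbx21 (422 to 465 on the Tfh arrays and 444 to 462 on the Th1 arrays) among them, 4 were lower in Tfh than in Th1 cells and 2 higher in Rictor-null mice. In WT mice 0 were lower by limma's test (0 at an unadjusted p under 0.05) and 5 were higher. Among all probe sets tested, 4.22% were higher and 6.06% lower in Tfh than in Th1 cells of Rictor-null mice. In WT mice these shares were 2.31% and 7.09%. The B cell genes Cd79a and Ms4a1 lay below the filter.

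Transcripts of all 6 genes were higher in Rictor-null than in WT Tfh cells by at least 1 probe set. In Tfh cells 8 of the 11 member probe sets rose and 0 fell, and 1 had a lower signal at an unadjusted p under 0.05. Among all 23725 probe sets tested, 8.46% rose, 1.61% fell and 10.1% changed in either direction. In Th1 cells 6 of 11 rose and 0 fell, with 0 lower at an unadjusted p under 0.05. There 6.39% of all probe sets rose, 2.36% fell and 8.75% changed. The 6 belonged to 5 of the 6 genes, Socs1 being the exception when any 1 probe set of a gene counts. By each gene's probe set with the highest mean signal, 5 of 6 genes rose in Tfh cells and 3 of 6 in Th1 cells. Counted in that way, 9% and 6.69% of all genes rose. The signals of the 2 genotypes did not overlap, Rictor-null being higher, for 8 member probe sets in Tfh cells and 9 in Th1 cells, beside 39% and 28.8% of all probe sets, and Rictor-null was lower without overlap for 1 and 0, beside 19.5% and 26.2%. The same 6 probe sets, of Socs2 (2 probe sets), Socs3, Cish, Pim1 and Pim2, rose in both cell types, against 3.22% of all probe sets. The median difference over the 11 probe sets was 0.531 in Tfh cells and 0.585 in Th1 cells, beside 0.037 and 0.003 over all probe sets. Tests are limma's moderated test on log2(signal + 32), adjusted by the Benjamini-Hochberg method over all probe sets tested, and a change is a difference with an adjusted p under 0.05. A log2 difference on this scale understates the change of dim probe sets. With 2 arrays against 2, an exact permutation test cannot give a two-sided p below 0.333. After quantile normalization, 6 member probe sets rose in Tfh cells and 5 in Th1 cells. With no filter on dim probe sets the counts were 7 and 5. Leaving out the 2 arrays that stood apart, as done below, was a setting chosen after seeing the data.

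**Figure D1:**
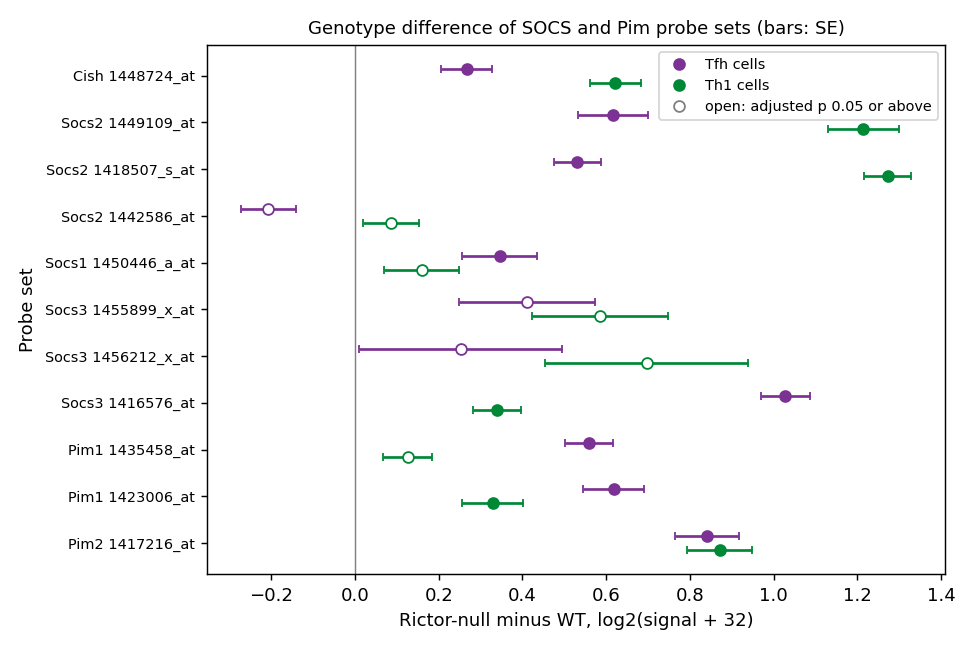
Rictor-null minus WT difference in log2(signal + 32) for the 11 member probe sets that passed the filter, with Tfh and Th1 cells in 2 colours and bars of 1 standard error. Filled points have an adjusted p under 0.05 (8 in Tfh cells and 6 in Th1 cells), and 1 point, Socs2 1442586_at in Tfh cells, lies below 0.

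Markers of several cell types and of cell handling moved with the genotype as well. Over all genes 9% rose and 1.46% fell in Tfh cells, and 6.69% rose and 2.3% fell in Th1 cells. Of 14 tested Th1 markers, 5 rose and 0 fell in each cell type. At an unadjusted p under 0.05, 1 of them was lower in Tfh cells and 2 in Th1 cells. Among 8 CD4 T cell markers and 7 myeloid markers, 1 of each list rose in Tfh cells, 0 rose in Th1 cells and 0 fell. Of 3 B cell markers 0 rose and 1 fell, in Th1 cells, and of 2 erythroid and platelet markers 0 changed. Each array measured a pool of sorted cells, in which fewer cells of a type and less RNA per cell cannot be told apart. The 15 Tfh markers summed to 10420 to 10820 in Rictor-null Tfh cells and 7879 to 8198 in WT Tfh cells, and to 8629 to 8734 in Rictor-null Th1 cells and 6483 to 6612 in WT Th1 cells. Of these 15, 12 rose in Tfh cells and 10 in Th1 cells, with 0 falling and 0 lower at an unadjusted p under 0.05, and leaving out WT Tfh replicate 1 gave 5 calls in Tfh cells, and leaving out WT Tfh replicate 2 gave 6. The summed signal of 10 tested regulatory T cell markers was 7335 to 7357 in Rictor-null Tfh cells and 4544 to 4689 in WT Tfh cells, and 7992 to 8052 in Rictor-null Th1 cells and 4867 to 4921 in WT Th1 cells. Foxp3 lay above its array's median on 1 of 8 arrays and was not tested. It read 27.5 and 41.55 in Rictor-null Tfh cells and 18.75 and 22.95 in WT Tfh cells. In Th1 cells Foxp3 read 35.0 and 27.5 for Rictor-null and 16.9 and 23.7 for WT. Of the 10 tested markers, led in signal by Ctla4, Ikzf2 and Nrp1, 6 rose in Tfh cells and 7 in Th1 cells. Of them 0 fell (1 and 0 lower at an unadjusted p under 0.05). The count in Th1 cells was 4 without Rictor-null Th1 replicate 1. For 9 tested markers of CD8 T and NK cells, the sums were 5947 to 6357 in Rictor-null Tfh cells and 3690 to 3880 in WT Tfh cells, and 3043 to 3197 in Rictor-null Th1 cells and 1730 to 1735 in WT Th1 cells. Of these 9, 7 rose and 1 fell in Tfh cells, and 4 rose and 1 fell in Th1 cells. Without WT Tfh replicate 1 or 2, 3 rose and 1 fell in Tfh cells. The 3 brightest were Gzmk (0.54 and 0.12), Eomes (0.33 and 0.20) and Klrd1 (0.28 and 0.46), given for Tfh and then Th1 cells, and all 3 passed in Tfh cells, Klrd1 also in Th1 cells. The defining genes Cd8a, between 39.1 and 52.2, and Ncr1, below the filter, were dim. The 27 immediate early and cell-handling stress genes summed to 64760 to 65340 in Rictor-null Tfh cells and 57870 to 58120 in WT Tfh cells, and to 70810 to 71540 in Rictor-null Th1 cells and 62830 to 63830 in WT Th1 cells. Among them 13 rose in Tfh cells with 0 falling, and 11 rose in Th1 cells with 1, Jun, falling (2 lower at an unadjusted p under 0.05 in each). The call of Jun was lost under 10 of 20 alternatives. The number called was 7 in Tfh cells without WT Tfh replicate 1 or 2, and in Th1 cells 6 without Rictor-null Th1 replicate 1 and 7 without WT Th1 replicate 2. Fosl2 (1.26 and 0.95), Gadd45b (0.82 and 0.83), Nr4a3 (0.93 and 0.78) and Atf3 (0.59 and 0.79) had the smallest p values, given for Tfh and then Th1 cells. The part of these lists in the differences of the SOCS and Pim genes was not tested.

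Cish encodes CIS, a feedback inhibitor best known for STAT5-driven induction by interleukin 2. Its probe set 1448724_at had signals of 515 and 482 in Rictor-null Tfh cells and 402 and 417 in WT Tfh cells. In Th1 cells the signals were 969 and 979 for Rictor-null and 644 and 600 for WT. The 4 groups did not overlap, and their order was Rictor-null Th1, WT Th1, Rictor-null Tfh and WT Tfh. Cish rose by 0.62 ± 0.0615 (SE) in Rictor-null Th1 cells (adjusted p = 0.000334) and by 0.27 ± 0.0615 in Rictor-null Tfh cells (adjusted p = 0.0269). The rise in Tfh cells lost its call without Rictor-null Tfh replicate 1 (adjusted p = 0.0576), WT Tfh replicate 1 (0.195) or WT Tfh replicate 2 (0.129), after quantile normalization (0.101) and with only the 2 groups in the fit (0.053). Tfh cells had less Cish than Th1 cells in both genotypes, by -0.92 in Rictor-null cells (adjusted p = 4.42e-05) and -0.57 in WT cells (adjusted p = 0.00131). The difference between the 2 genotype effects was -0.35 ± 0.087 and did not pass the test (adjusted p = 0.0985).

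Socs2 encodes a SOCS protein known for restraining growth hormone signalling and, like Cish, known as a STAT5 target. Its probe set with the highest mean signal, 1449109_at, read 141 and 167 in Rictor-null Tfh cells and 87.0 and 91.3 in WT Tfh cells. Rictor-null Th1 cells gave 483 and 416, and WT Th1 cells 175 and 175. The groups followed the same order as for Cish, with no overlap between neighbours. Socs2 rose by 1.21 ± 0.0845 in Rictor-null Th1 cells (adjusted p = 4.76e-05), a ratio of mean signals of 2.57, which ranked 26 from the top of the 23725 probe sets. In Rictor-null Tfh cells it rose by 0.62 ± 0.0845 (adjusted p = 0.00234), a ratio of 1.73. Between cell types it was lower in Tfh cells by -1.37 in Rictor-null cells (adjusted p = 3.02e-05) and by -0.77 in WT cells (adjusted p = 0.00134).

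The other Socs2 probe sets split into those that followed this pattern and those near background. Probe set 1418507_s_at, whose suffix marks probes shared by several transcripts, read 78.4 and 77.5 in Rictor-null Tfh cells, 43.1 and 45.0 in WT Tfh cells, 293 and 276 in Rictor-null Th1 cells, and 98.1 and 99.5 in WT Th1 cells. It rose by 0.53 ± 0.0559 in Tfh cells (adjusted p = 0.000599) and by 1.27 ± 0.0559 in Th1 cells (adjusted p = 3.44e-06). The Th1 effect exceeded the Tfh effect, with a difference of -0.74 ± 0.079 between them (adjusted p = 0.00577), whereas for 1449109_at the same difference, -0.60 ± 0.119, missed the threshold (adjusted p = 0.0511). The call for 1418507_s_at was lost without WT Tfh replicate 1 (adjusted p = 0.0543) or replicate 2 (0.0573), and that for 1449109_at was gained under 9 alternatives (adjusted p down to 0.0326). Probe set 1442586_at passed the filter on 5 of 8 arrays and stayed between 32.9 and 45.3, and none of its differences passed the test. The remaining 3 lay below the filter. In a fit without the filter, 1438470_at (34.1 and 31.6 in Rictor-null Th1 cells, 17.3 and 20.7 in WT Th1 cells) rose in Th1 cells by 0.35 (adjusted p = 0.0377), and 1446085_at (29.5 and 26.9 against 14.1 and 14.9) rose there by 0.37 (adjusted p = 0.0079). Probe set 1441476_at stayed between 5.86 and 7.65 on all arrays.

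**Figure D2:**
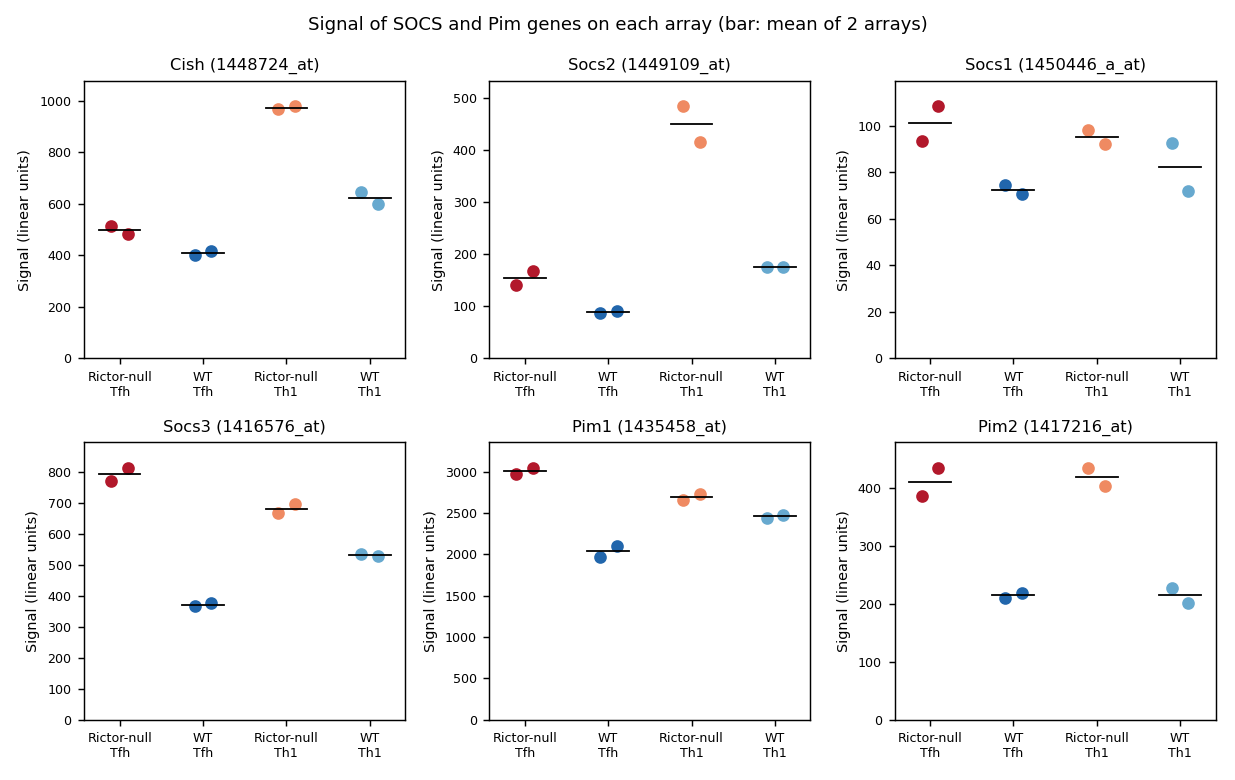
Signal on a linear scale, from 0, of 1 probe set per gene on each of the 8 arrays, with Rictor-null left of WT in Tfh and then in Th1 cells and a bar at the mean of 2 arrays. Cish and Socs2 are highest in Rictor-null Th1 cells, Socs3 1416576_at and Pim1 are highest in Rictor-null Tfh cells, and both Rictor-null groups lie above both WT groups for Pim2.

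Socs1 encodes the inhibitor that blocks JAK kinases directly and restrains interferon gamma signalling. Its 1 probe set, 1450446_a_at, was dim, with 93.7 and 108 in Rictor-null Tfh cells and 74.5 and 70.7 in WT Tfh cells. Signals were 98.1 and 92.2 in Rictor-null Th1 cells and 92.5 and 72.1 in WT Th1 cells, which overlapped. Socs1 rose in Tfh cells by 0.35 ± 0.0895 (adjusted p = 0.0411), and the difference in Th1 cells was 0.16 ± 0.0895 (adjusted p = 0.317, 95% interval -0.042 to 0.36). The 2 effects differed by 0.19, which did not pass the test (adjusted p = 0.445). The call in Tfh cells was lost under 10 of 20 alternatives, among them leaving out Rictor-null Tfh replicate 2 (adjusted p = 0.195), WT Tfh replicate 1 (0.169) or replicate 2 (0.222), either Rictor-null Th1 array (0.0628) and the fit with the replicate block (0.0629). Without both arrays that stood apart, the Tfh call was also lost (adjusted p = 0.057), and Socs1 rose in Th1 cells by 0.29 (adjusted p = 0.0372).

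Socs3 encodes the inhibitor that binds gp130, the shared receptor chain of the interleukin 6 family, and its transcript is a classical target of STAT3. Probe set 1416576_at read 772 and 815 in Rictor-null Tfh cells and 367 and 379 in WT Tfh cells. Rictor-null Th1 cells gave 668 and 698, and WT Th1 cells 538 and 529. The groups did not overlap, in the order Rictor-null Tfh, Rictor-null Th1, WT Th1 and WT Tfh. Socs3 by this probe set rose by 1.03 ± 0.0579 in Tfh cells (adjusted p = 2.67e-05), a ratio of mean signals of 2.13 and rank 36 from the top, and by 0.34 ± 0.0579 in Th1 cells (adjusted p = 0.00697). The Tfh effect was larger by 0.69 ± 0.0819 (adjusted p = 0.0101). That last call was lost without WT Tfh replicate 1 (adjusted p = 0.0945), WT Tfh replicate 2 (0.06) or Rictor-null Th1 replicate 1 (0.0594). In WT cells this probe set was lower in Tfh than in Th1 cells by -0.48 (adjusted p = 0.00235), whereas in Rictor-null cells it was 0.21 above Th1 cells and did not pass (adjusted p = 0.0527).

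The other Socs3 probe sets did not follow it. Both carry the suffix _x_at, which marks probes that may bind other transcripts, and 1455899_x_at had the highest mean signal of the 3. It read 3841 and 2592 in Rictor-null Tfh cells, 2613 and 2142 in WT Tfh cells, 3258 and 3477 in Rictor-null Th1 cells, and 2092 and 2384 in WT Th1 cells. Rictor-null and WT signals overlapped in Tfh cells, and did not in Th1 cells. Neither difference passed the test, at 0.41 ± 0.162 (adjusted p = 0.136) in Tfh cells and 0.58 ± 0.162 (adjusted p = 0.0561) in Th1 cells. Probe set 1456212_x_at was lowest on WT Th1 replicate 1 (523) and next on Rictor-null Tfh replicate 2 (586), the arrays that stood apart, while Rictor-null Tfh replicate 1 read 1128. Its differences were 0.25 ± 0.243 (adjusted p = 0.53) in Tfh cells and 0.70 ± 0.243 (adjusted p = 0.118) in Th1 cells. Without Rictor-null Tfh replicate 2, both passed in Tfh cells, at 0.69 (adjusted p = 0.0145) and 0.71 (adjusted p = 0.0376). Without Rictor-null Tfh replicate 1, the Tfh difference of 1456212_x_at was -0.20 (adjusted p = 0.379). Without both arrays that stood apart, both probe sets rose in Tfh cells (adjusted p = 0.00723 and 0.00546) and also in Th1 cells (adjusted p = 0.0272 and 0.0218). Over the 8 arrays the _x_at probe sets correlated with each other at r = 0.949, and 1416576_at correlated with them at 0.631 and 0.409.

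**Figure D3:**
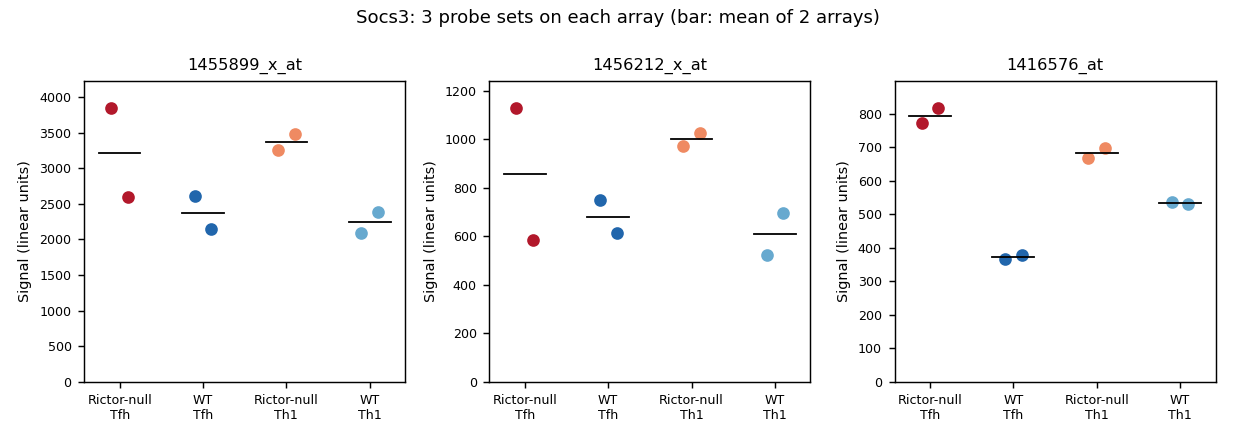
Signal on a linear scale, from 0, of the 3 Socs3 probe sets on each array, Rictor-null left of WT in Tfh and then in Th1 cells, with a bar at the mean of 2 arrays. The Rictor-null Tfh arrays lie close together for 1416576_at (772 and 815) and far apart for 1455899_x_at (3841 and 2592) and 1456212_x_at (1128 and 586).

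Pim1 encodes a kinase known as a target of several STATs. Its probe set with the highest mean signal, 1435458_at, read 2976 and 3049 in Rictor-null Tfh cells and 1966 and 2106 in WT Tfh cells. In Th1 cells the signals were 2654 and 2726 for Rictor-null and 2445 and 2481 for WT. The order of the groups was that of Socs3 1416576_at, with no overlap. Pim1 rose by 0.56 ± 0.0581 in Tfh cells (adjusted p = 0.000563), and its difference in Th1 cells was 0.13 ± 0.0581 (adjusted p = 0.226). The effects differed by 0.43 ± 0.0822 (adjusted p = 0.0428), and this call was lost under 12 of 19 alternatives, including the fit with the replicate block (adjusted p = 0.0636) and the fits without any 1 array other than Rictor-null Tfh replicate 1 (adjusted p up to 0.271). In WT cells Pim1 was lower in Tfh than in Th1 cells by -0.27 (adjusted p = 0.0247), a call that leaving out WT Tfh replicate 1 (0.209) or 2 (0.0943), or WT Th1 replicate 1 (0.103) or 2 (0.0921), removed.

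Probe set 1423006_at of Pim1 read 833 and 947 in Rictor-null Tfh cells and 577 and 559 in WT Tfh cells, and 769 and 790 in Rictor-null Th1 cells and 640 and 588 in WT Th1 cells. It gave the same order of groups. It rose in both cell types, by 0.62 ± 0.0729 in Tfh cells (adjusted p = 0.00109) and by 0.33 ± 0.0729 in Th1 cells (adjusted p = 0.0233), and the difference between the effects did not pass (0.29, adjusted p = 0.198). The Th1 call was lost without Rictor-null Th1 replicate 1 (adjusted p = 0.0992) or 2 (0.111), WT Th1 replicate 2 (0.12) or either WT Tfh array (0.0509), and after quantile normalization (0.0778).

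Pim2 encodes a related survival kinase, known for acting beside the AKT pathway in lymphocytes. Its probe set 1417216_at read 388 and 435 in Rictor-null Tfh cells and 210 and 220 in WT Tfh cells. Rictor-null Th1 cells gave 436 and 404, and WT Th1 cells 228 and 203. The Rictor-null groups overlapped each other, as did the WT groups, and all 4 Rictor-null arrays lay above all 4 WT arrays. Pim2 rose by 0.84 ± 0.0767 in Tfh cells (adjusted p = 0.000265) and by 0.87 ± 0.0767 in Th1 cells (adjusted p = 0.000166), a ratio of mean signals of 1.91 and 1.95. The difference between these effects was -0.03 with a 95% interval of -0.273 to 0.214, and the Tfh minus Th1 difference was -0.03 (95% interval -0.202 to 0.143) in Rictor-null cells. Both calls held under all 20 alternatives.

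Between the cell types, the STAT5-linked Cish and 2 of the 3 tested Socs2 probe sets were lower in Tfh cells in both genotypes. The other, the dim Socs2 1442586_at, was 0.16 higher in Tfh than in Th1 cells of WT mice. By limma's test that difference did not pass (unadjusted p = 0.0339, adjusted p = 0.136). Its difference in Rictor-null cells was -0.13 (adjusted p = 0.255). In Rictor-null cells 3 of 11 member probe sets were lower in Tfh than in Th1 cells and 0 were higher, with 3 higher at an unadjusted p under 0.05, and among all probe sets 6.06% were lower, 4.22% higher and 10.3% changed. In WT cells 5 of 11 were lower and 0 higher, with 1 higher at an unadjusted p under 0.05, beside 7.09% lower, 2.31% higher and 9.4% changed among all probe sets. Groups did not overlap, Tfh being lower, for 4 member probe sets in Rictor-null cells and 6 in WT cells (27.8% and 44.1% of all), and Tfh being higher for 3 and 1 (23.2% and 21% of all). Socs3 1416576_at and Pim1 1435458_at passed in WT and not in Rictor-null cells. The difference of the differences is the interaction given above for each, and it passed for 3 member probe sets (Socs2 1418507_s_at, Socs3 1416576_at and Pim1 1435458_at), 2 with a positive and 1 with a negative difference, against 1.26% of all probe sets (0.83% and 0.426%). That count was 0 without WT Tfh replicate 1 or 2 (7 and 6 at an unadjusted p under 0.05), 1 without Rictor-null Th1 replicate 1 and 7 without Rictor-null Tfh replicate 1. In Rictor-null cells the count of 3 rose to 6 without Rictor-null Tfh replicate 1. The genotype and cell type comparisons share arrays and are not independent of each other.

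**Figure D4:**
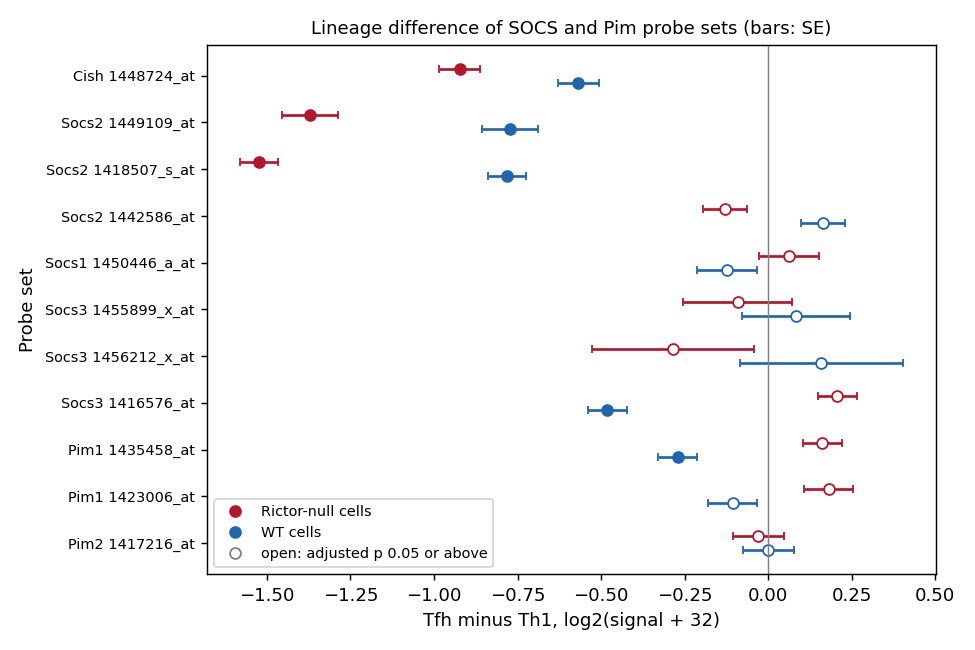
Tfh minus Th1 difference in log2(signal + 32) for the 11 member probe sets, in Rictor-null and in WT cells, with bars of 1 standard error and filled points at an adjusted p under 0.05. Cish and 2 Socs2 probe sets lie below 0 in both genotypes (-1.52 to -0.57), and Pim2 lies at -0.03 in Rictor-null cells and beside 0 in WT cells.

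The members fell into alike patterns over the 8 arrays, given here as a description with no test, since the arrays share 4 groups. Cish correlated with Socs2 1418507_s_at at r = 0.988, and Socs3 1416576_at correlated with Pim1 1435458_at at r = 0.99. Among 10638 other genes, each by its probe set with the highest mean signal, the 3 most like Cish were Prxl2a (0.990), Acot11 (0.990) and Slk (0.989), and those most like Socs2 1449109_at were Prxl2a (0.994), Pik3r4 (0.994) and Tmem176b (0.994). Nfil3, a transcription factor known for responding to cytokines (0.993), Prss12 (0.990) and Aff3 (0.989) were most like Pim2. Ssr1 (0.980), Midn (0.977) and B9d2 (0.977) were most like Pim1 1435458_at. Rnf128 (0.978), Atpif1 (0.969) and Msi2 (0.959) were most like Socs3 1455899_x_at, and Ercc6l2 (0.978), Slc25a39 (0.975) and Nelfe (0.972) were most like Socs1.

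The JAK kinases and STAT factors upstream of these genes were not set apart from all genes by the number that passed the test. The 10 genes tested were each taken by the probe set with the highest mean signal. In Tfh cells 0 of 10 passed limma's test, with 2 higher and 0 lower at an unadjusted p under 0.05 (1 passed without Rictor-null Tfh replicate 2), where 10.5% of the 11217 genes changed (9% rose and 1.46% fell). In Th1 cells 1 of 10, Jak2, rose and 0 fell, where 8.99% of genes changed (6.69% rose and 2.3% fell). Jak2 read 1113 and 1083 in Rictor-null Th1 cells and 845 and 829 in WT Th1 cells, a rise of 0.38 ± 0.0564 (adjusted p = 0.00331). Stat5a, which carries interleukin 2 signals, differed by 0.23 in Tfh cells (adjusted p = 0.0546) and by 0.08 in Th1 cells (adjusted p = 0.513). The differences of Jak1 (0.09 and 0.20), Jak3 (0.13 and 0.12), Tyk2 (0.16 and -0.07), Stat2 (0.03 and 0.03), Stat3 (0.09 and 0.04), Stat4 (0.01 and 0.14), Stat5b (0.08 and 0.15) and Stat6 (-0.01 and 0.07), in Tfh and then Th1 cells, did not pass. The median over the list was 0.092 in Tfh and 0.096 in Th1 cells, beside 0.039 and 0 over all genes.

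Of the other SOCS and Pim family genes, 2 of 5 rose in each cell type and 0 fell, with 0 lower at an unadjusted p under 0.05. Over all genes 9% rose and 1.46% fell in Tfh cells, and 6.69% rose and 2.3% fell in Th1 cells. Pim3, the remaining Pim kinase, read 877 and 862 in Rictor-null Tfh cells and 659 and 660 in WT Tfh cells, and 1074 and 1090 in Rictor-null Th1 cells and 783 and 791 in WT Th1 cells. It rose by 0.38 ± 0.0526 (adjusted p = 0.00236) and 0.44 ± 0.0526 (adjusted p = 0.00091), in Tfh and then Th1 cells. Socs5, known for restraining interleukin 4 signalling, read 132 and 134 in Rictor-null Tfh cells and 101 and 101 in WT Tfh cells, and 160 and 165 in Rictor-null Th1 cells and 107 and 109 in WT Th1 cells. It rose by 0.31 (adjusted p = 0.00767) and 0.47 (adjusted p = 0.000653), and the first call was lost without WT Tfh replicate 1 (0.0831) or 2 (0.0804). Socs4 (-0.15 and 0.18), Socs6 (0.26 and 0.19) and Socs7 (0.15 and 0.12) did not pass in either cell type.

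**Figure D5:**
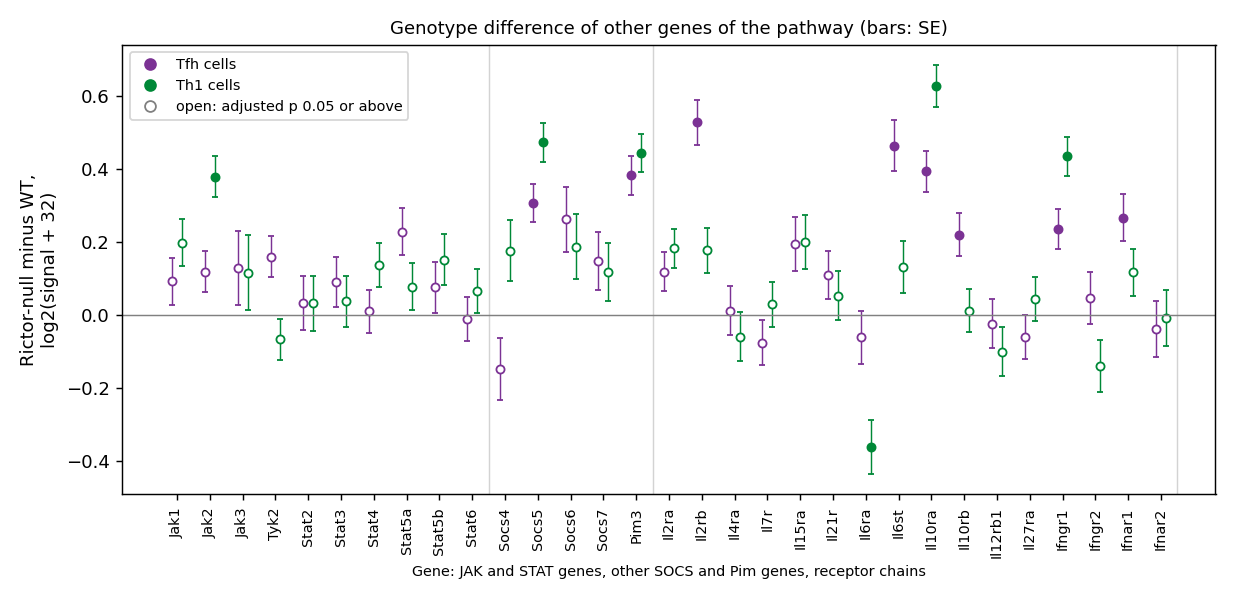
Rictor-null minus WT difference in log2(signal + 32), in Tfh and Th1 cells with bars of 1 standard error, for 10 JAK and STAT genes, 5 other SOCS and Pim genes and 16 receptor chains. Filled points have an adjusted p under 0.05. Among the JAK and STAT genes the only filled point is Jak2 in Th1 cells, and Il6ra in Th1 cells is the only filled point below 0 in the plot.

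Among receptor chains that signal through JAKs, 6 of 16 tested rose in Tfh cells and 0 fell, with 0 lower at an unadjusted p under 0.05, where 9% of all genes rose and 1.46% fell. In Tfh cells 3 passed after leaving out Rictor-null Tfh replicate 2 or WT Tfh replicate 1, and 2 after leaving out WT Tfh replicate 2. Quantile normalization, or a fit of only the 2 groups compared, gave 3. In Th1 cells 2 rose and 1 fell, where 6.69% of all genes rose and 2.3% fell. Il10ra, the interleukin 10 receptor chain, rose by 0.39 in Tfh cells (adjusted p = 0.00308), and the rise in Th1 cells was 0.63 (adjusted p = 0.000196). Ifngr1, a chain of the interferon gamma receptor, rose by 0.24 in Tfh cells (adjusted p = 0.0276) and by 0.43 in Th1 cells (adjusted p = 0.0013). The Tfh call of Ifngr1 was lost without Rictor-null Tfh replicate 2 (adjusted p = 0.0942), WT Tfh replicate 1 (0.201) or WT Tfh replicate 2 (0.137). Il2rb, the interleukin 2 and 15 receptor chain that CIS is known to bind, read 390 and 416 in Rictor-null Tfh cells and 261 and 278 in WT Tfh cells. It rose by 0.53 in Tfh cells (adjusted p = 0.00107) and differed by 0.18 in Th1 cells (adjusted p = 0.118). Il6st, which encodes gp130, rose by 0.47 in Tfh cells (adjusted p = 0.00405, and 0.0529 without WT Tfh replicate 2) and differed by 0.13 in Th1 cells (adjusted p = 0.293). The 1 chain that fell, Il6ra, was named after its values were seen, and it fell in Th1 cells by 0.36 (adjusted p = 0.0165). That call was lost when Rictor-null Th1 replicate 2 (0.093) or WT Th1 replicate 2 (0.0912) was left out. Among 13 other inhibitors of the pathway, 0 passed in Tfh cells, with 5 higher and 2 lower at an unadjusted p under 0.05, and 2 passed without Rictor-null Tfh replicate 1. In Th1 cells 1 of them, the STAT3 inhibitor gene Pias3, rose by 0.23 (adjusted p = 0.0382), a call lost under 9 of 20 alternatives (adjusted p up to 0.18, without Rictor-null Th1 replicate 1).

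Among genes known as targets of these STATs, the counts below stand beside 9% of all genes rising and 1.46% falling in Tfh cells, and 6.69% rising and 2.3% falling in Th1 cells. Of 19 tested STAT5 targets, 7 rose and 0 fell in Tfh cells, with 0 lower at an unadjusted p under 0.05. In Th1 cells 5 of the STAT5 targets rose and 1, Ccnd3, fell, a call lost under 7 of 20 alternatives. Those with the smallest p were the granule protease gene Gzmb (0.73 and 1.28, in Tfh and then Th1 cells), the costimulatory receptor gene Tnfrsf4 (0.96 and 0.91), the survival gene Bcl2 (0.68 and 0.50) and the cell cycle inhibitor gene Cdkn1a (0.64 and 0.69), and all 4 rose in both. Of 14 tested STAT3 targets, 9 rose in Tfh cells and 8 in Th1 cells, and 0 fell in either, with 0 lower at an unadjusted p under 0.05. The count in Tfh cells was 4 without WT Tfh replicate 2, and that in Th1 cells was 4 without Rictor-null Th1 replicate 1, 5 without WT Th1 replicate 1 and 4 without WT Th1 replicate 2. Of these 14, 4 (Bcl6, Icos, Il21 and Maf) are also in the list of Tfh markers, and 3 of the STAT5 targets (Il2ra, Tnfrsf4 and Tnfrsf18) are in that of regulatory T cell markers. The STAT3 list also shares 2 genes with the immediate early and cell-handling list, 1 with the Th1 markers and 1 with the receptor chains. The STAT5 list shares 2, Gzmb among them, with the Th1 markers, 2 with the receptor chains and 1 with the Pim substrates. Il10 (1.16 and 0.42), Il21 (0.80 and 0.49) and Bcl3 (0.51 and 0.39) rose in both cell types, the last losing its Th1 call without Rictor-null Th1 replicate 1 (adjusted p = 0.0553). The list medians in Tfh and then Th1 cells were 0.202 and 0.177 for STAT5 targets and 0.364 and 0.289 for STAT3 targets, beside 0.039 and 0 over all genes.

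Among known substrates and partners of Pim kinases, 2 of 11 tested rose in Tfh cells and 0 fell, with 1 lower at an unadjusted p under 0.05, and 1 rose and 1 fell in Th1 cells, where 10.5% and 8.99% of all genes changed. The count in Tfh cells was 0 without WT Tfh replicate 1 or 2, and 1 without either array of either Rictor-null group. In Th1 cells 1 gene passed, a rise, when any 1 of the 4 Th1 arrays or of the 2 WT Tfh arrays was left out. Map3k5, which encodes the stress kinase ASK1, rose by 0.34 in Tfh cells (adjusted p = 0.00478, and 0.0649 without WT Tfh replicate 1 or 0.0547 without replicate 2) and by 0.35 in Th1 cells (adjusted p = 0.00386). Nfatc1 rose by 0.24 in Tfh cells (adjusted p = 0.0351), a call lost under 11 of 20 alternatives (up to 0.2, without WT Tfh replicate 2). Foxo1, a transcription factor that AKT also phosphorylates, fell by 0.27 in Th1 cells (adjusted p = 0.03), a call lost under 8 of 20 alternatives (up to 0.147, without Rictor-null Th1 replicate 2), and its difference of -0.19 in Tfh cells did not pass (adjusted p = 0.0905). Bad, the gene of a death factor that PIM kinases inactivate, differed by 0.23 and 0.14 without passing.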

How the data were processed

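The deposited values were linear probe set signals (intensity), 45037 probe sets on each of 8 Affymetrix arrays, hybridised with biotin-labelled cRNA from 100 ng of total RNA per the labels' protocols. MAS5 and RMA appear in the submitters' processing notes without version, role or order, so how the authors scaled the arrays is unknown. All 8 columns were used. The platform annotation gave 34945 probe sets 1 symbol, 932 several and 9160 none. The members and gene lists were chosen with earlier results of these data known.

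Signals were taken to log2 after adding 32, and 23725 probe sets passed the filter. limma 3.58.1 (R 4.3.3) was fitted with 1 mean per group and default moderation (4 residual and 5.37 prior degrees of freedom). Differences are on the log2 scale unless a signal or ratio is named, and errors are standard errors (SE). Replicates were labelled biological, p-values measure only the spread between these pools, and precision is limited by having few arrays. Genes named were the members with all probe sets, the 3 genes most correlated with each member's probe set of highest mean signal, up to 4 genes per pathway list with the smallest p in either genotype comparison, all JAK, STAT and other SOCS and Pim genes, and the 3 brightest markers of each other cell type. Il18r1 was taken out of the receptor list after its values were seen, because it signals through MyD88 and not through JAKs. Bcl6, Btla, Ccnd3, Cd8a, Cxcr5, Il4, Il6ra, Jun and P2rx7 were named after their values were seen, and 1 gene list is not reported here. On simulated data of the Tfh comparison over 23725 probe sets, 4 of 50 changes of 0.25 and 35 of 50 of 0.5 were recovered. Recovered changes of 1 were 47 of 50 and of -0.5 were 35 of 50, and 4 of 125 calls were of unchanged probe sets. The simulation drew noise independently for each probe set and changed few of them, whereas 10.1% were called in the data. These rates therefore need not hold for the data. Alternatives were other scalings, pseudocounts, filters, probe sets per gene, array weights, variance priors, a replicate block, fits of 2 groups and each array omitted. Figures were drawn with matplotlib 3.10.9 in Python 3.11.15.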

Additional observations from a re-analysis of the deposited data

Results flagged for a closer look

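The genotype effect differed between Tfh and Th1 cells, by limma's test of the difference itself, for 3 member probe sets. For Socs2 1418507_s_at the Tfh effect minus the Th1 effect was -0.74, the rise being larger in Th1 cells. For Socs3 1416576_at it was 0.69 and for Pim1 1435458_at it was 0.43, the rise being larger in Tfh cells. Other probe sets of the same genes did not pass this test: Socs2 1449109_at gave -0.60 (adjusted p = 0.0511) and Pim1 1423006_at gave 0.29 (adjusted p = 0.198), with the same sign, whereas Socs3 1455899_x_at gave -0.17 (adjusted p = 0.706) and 1456212_x_at gave -0.44 (adjusted p = 0.504), with the opposite sign. No group had enough arrays to test a single array as an outlier.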

How the results depend on the processing

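Under 20 alternatives, 952 of 1059 values of the 11 member probe sets kept their sign and their side of the threshold, 44 lost a call, 34 gained one and 29 changed sign, none of these from a called value. Counts of member probe sets called stayed within 1.5 times of the reported ones except as follows. With 1 probe set per gene, which leaves 6 to test, 5 were called in Tfh cells and 3 for Tfh minus Th1 in WT cells. With the larger alternative pseudocount, 5 were called for Tfh minus Th1 in Rictor-null cells. Leaving out each array in turn, where the lone array of a group is assumed to vary like the other groups, gave 3 to 6 for that comparison and 0 to 7 for the interaction. Sign changes were those of Pim2 differences near 0, of Socs1 and of the Socs3 _x_at probe sets. For Socs1 the main fit gave Tfh minus Th1 differences of 0.063 in Rictor-null and -0.123 in WT cells, and 0.19 for the interaction. Quantile normalization gave Pim2 Tfh minus Th1 differences of 0.011 in Rictor-null and 0.068 in WT cells. Without both arrays apart on the third component, Pim2 gave 0.075 in WT cells. In the same setting Socs1 gave -0.017 in Rictor-null cells, 0.006 in WT cells and -0.023 for the interaction. Socs3 1455899_x_at gave 0.189, -0.011 and 0.2, and 1456212_x_at gave 0.17, -0.038 and 0.207, in that order. Over single arrays left out, Pim2 ranged over -0.106 to 0.047 in Rictor-null cells, -0.075 to 0.075 in WT cells and -0.106 to 0.047 for the interaction, Socs1 over -0.017 to 0.143 in Rictor-null and -0.252 to 0.006 in WT cells. For Socs3 1455899_x_at the ranges were -0.373 to 0.189, -0.06 to 0.223 and -0.455 to 0.107, for 1456212_x_at -0.739 to 0.17, -0.038 to 0.356 and -0.898 to 0.011, and for its genotype difference in Tfh cells -0.202 to 0.707. The replicate numbers did not pair the groups (correlations of replicate differences from -0.526 to 0.31). With the replicate number as a block, 7 member probe sets were called in Tfh cells, 6 in Th1 cells, 3 and 5 for Tfh minus Th1 in Rictor-null and WT cells, and 2 for the interaction, and 178 of all probe sets were called for the interaction and 1217 for Tfh minus Th1 in WT cells. Among all probe sets, 2387 were called in Tfh cells (2006 higher and 381 lower), 1528 with 1 probe set per gene, 1521 without both arrays and 533 to 4420 over single arrays left out, lowest without WT Tfh replicate 1 and highest without Rictor-null Tfh replicate 1. In Th1 cells 2075 were called (1515 higher and 560 lower), 1180 per gene and 816 to 2862 over arrays left out, lowest without Rictor-null Th1 replicate 1. For Tfh minus Th1 in Rictor-null cells 2440 were called (1002 higher and 1438 lower), 1090 per gene, 1495 with array weights, 1122 with only 2 groups in the fit, and 898 to 3292 over arrays left out. In WT cells 2230 were called (548 higher and 1682 lower), 4898 with array weights, 3391 with only 2 groups, and 207 to 3698 over arrays left out. The interaction had 298, with 155 at a pseudocount of 1 and 169 at the larger one, 77 with no filter, 136 per gene and 14 to 2245 over arrays left out. Quantile normalization made 1280 of all calls higher and 706 lower in Tfh cells, 1177 and 789 in Th1 cells, 1129 and 1079 for Tfh minus Th1 in Rictor-null cells and 763 and 913 in WT cells, and median centring gave 854 and 1921 in Rictor-null cells. In the pathway lists, the number called ranged over 5 to 9 for STAT5 targets and 4 to 10 for STAT3 targets in Tfh cells, and over 5 to 7 and 4 to 9 in Th1 cells. The cause of these shifts was not tested. The interaction could not be fitted with only 2 groups. Dim probe sets of Socs1 and Socs2 limit what the signals show.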
